A study of Mus musculus with 12 samples.

Results

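This report is about 9 transcription factors that define hepatocytes, the main parenchymal cells of the liver. They were taken by name from the gene table of the study, with symbols from GENCODE mouse release M21, and are Hnf4a, Foxa1, Foxa2, Foxa3, Cebpa, Onecut1, Prox1, Rxra and Nr1h3. All 9 were found among the 54232 genes counted, and all 9 were among the 14168 genes with enough counts to be tested. RNA was sequenced from whole liver of male C57BL6/J mice, with a label age of 8 weeks, in a model of alcohol-associated steatohepatitis (ASH) based on feeding through a tube into the stomach. The 5 pair-fed (PF) mice received a high-fat liquid diet of equal calories without ethanol. The 7 alcohol-fed (AF) mice received such a diet with ethanol for 8 weeks, with doses that reached 27 g/kg/day, and a binge of 5 g/kg each week. Before tube feeding, mice ate solid food rich in cholesterol and saturated fat or regular chow, and the rich food also went with the tube feeding.

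These factors work as a network in the hepatocyte. The FOXA proteins open chromatin as pioneer factors. HNF4A, a nuclear receptor, binds the promoters of many liver genes, and CEBPA (C/EBP alpha) drives metabolic genes of the mature hepatocyte. RXRA is the common partner with which several nuclear receptors bind DNA, among them LXR alpha (encoded by Nr1h3), the sensor of oxidized cholesterol. ONECUT1, also called HNF6, and PROX1 act in liver development and remain active in adult hepatocytes. Several of the factors regulate each other, and some are not limited to hepatocytes: ONECUT1, FOXA1 and FOXA2 are also found in bile duct cells, PROX1 in lymphatic endothelium and LXR alpha in macrophages.

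The start sites of the members were examined for letters that these factors are known to bind. RefSeq start windows (GRCm38.p6, 250 bases before to 50 after the start) were found for all 9 members, 15 windows in all. Hnf4a has a pair of annotated start sites 40298 bases apart, known as the P2 (upstream) and P1 (downstream) promoters, of which P1 is the one used in adult liver. Both are shown, as is the window of Onecut1, the member with the largest difference between the groups. Capitals mark ATTGAT (ONECUT) in the first window, searched on both strands and here written as ATCAAT. The downstream window of Hnf4a and the Onecut1 window hold none of the motifs searched and have no capitals. The windows lie at chr2:163506607-163506906 and chr2:163546905-163547204 for Hnf4a and at chr9:74861671-74861970 for Onecut1, all on the plus strand.
Hnf4a upstream start: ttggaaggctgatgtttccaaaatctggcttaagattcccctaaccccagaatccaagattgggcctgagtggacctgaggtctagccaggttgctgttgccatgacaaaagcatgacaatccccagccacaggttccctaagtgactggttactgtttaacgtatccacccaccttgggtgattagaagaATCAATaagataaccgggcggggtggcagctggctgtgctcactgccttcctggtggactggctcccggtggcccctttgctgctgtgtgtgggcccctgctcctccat
Hnf4a downstream start: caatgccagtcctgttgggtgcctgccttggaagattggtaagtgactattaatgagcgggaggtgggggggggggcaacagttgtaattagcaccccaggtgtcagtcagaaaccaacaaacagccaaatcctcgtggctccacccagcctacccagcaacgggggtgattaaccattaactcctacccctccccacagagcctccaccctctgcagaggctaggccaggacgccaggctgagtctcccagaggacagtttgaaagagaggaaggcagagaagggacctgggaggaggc
Onecut1 start: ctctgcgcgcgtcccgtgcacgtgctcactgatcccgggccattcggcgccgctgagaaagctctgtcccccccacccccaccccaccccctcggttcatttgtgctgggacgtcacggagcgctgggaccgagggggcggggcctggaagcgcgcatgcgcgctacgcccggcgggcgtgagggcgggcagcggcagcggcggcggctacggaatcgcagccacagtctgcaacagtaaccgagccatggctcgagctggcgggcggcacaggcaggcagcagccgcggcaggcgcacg

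The ONECUT letters lay 59 bases before the upstream start of Hnf4a. Of the 15 windows of members, 2 held ATTGAT (Hnf4a and Foxa2), against 7.54% of all 32851 RefSeq start windows. The forkhead motif TGTTTAC was found in 1 window (Foxa1; 3.65% of all windows), the nuclear receptor motif AGGTCA in 1 window (Rxra; 16.3%), and the HNF4A motif CAAAGTCCA (0.475%) and the C/EBP motif TTGCNNAA (10.8%) in none. No match of the 5 motifs overlapped another in these windows, and a match is a description of the letters. The Onecut1 window consists of G and C to 73.0%. Counts are given per gene, so that transcripts from the upstream and the downstream start of Hnf4a were not separated.

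The libraries held 24129900 to 28594027 reads on genes in PF and 25099033 to 30578639 in AF livers, and a member had between 50 and 26318 counts in a library. Levels are CPM, counts normalized to library size, scaled with edgeR's TMM factors, which were 0.832 to 0.901 in PF and 0.88 to 1.36 in AF livers. This scaling bears on small differences: on plain library totals, the median log2 fold change of all genes moved by 0.36, from 0.04 to 0.40. The livers were not alike within the AF group. On the first principal component of all genes (59.9% of the variance), PF livers lay between -73.3 and -52.5 and AF livers between 21.7 and 83.9, except AF replicate 6, which lay at -7.73. The 13 hepatocyte markers summed to between 131000 and 181000 CPM in PF livers. In AF livers they summed to between 77100 and 112000 CPM, except for replicates 6 and 7 with 138000 and 145000 CPM. The fits without AF replicate 6, and without replicates 6 and 7, are therefore given with the results that they change. Where a fit leaves out the highest AF livers of a member, its fold becomes lower by selection. A call in such a fit describes the dependence on these livers and is no added support. In RNA from whole liver, fewer hepatocytes and less RNA of a factor per hepatocyte cannot be told apart.

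The members differed widely in level. Scaled by the length of their exons, which allows genes to be compared, Hnf4a was highest with 139 ± 21.7 CPM per kb (SD, n = 5) in PF livers, above 97.6% of the genes tested. Cebpa followed with 73.9 and Rxra with 55.2 CPM per kb, whose PF ranges overlapped. Nr1h3, Foxa3 and Prox1 were at 22.9, 19.4 and 15.5 CPM per kb, each overlapping with its neighbour in this order. Foxa2 and Foxa1 were at 4.85 and 3.67 CPM per kb and also overlapped. Onecut1 was lowest with 1.75 CPM per kb, above 42.1% of the genes tested. The steps from Hnf4a to Cebpa (1.88-fold), from Rxra to Nr1h3 (2.41-fold), from Prox1 to Foxa2 (3.2-fold) and from Foxa1 to Onecut1 (2.1-fold) were without overlap in PF livers. The order of the means was the same in AF livers, where the step from Foxa1 to Onecut1 was 4.88-fold.

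Of the 9 members, Onecut1 and Prox1 were lower in AF livers and none was higher by edgeR's quasi-likelihood test, with Benjamini-Hochberg adjustment over all genes and a threshold of 0.05. These 2 of 9 (22.2%) stand beside 17.8% of all genes tested that were lower, and the 0 members that were higher beside 22.0% of all genes. At an unadjusted p under 0.05, 4 members were lower and 0 were higher, beside 22.3% and 27.3% of all genes, and DESeq2 and limma-voom also called 0 members higher. The fitted log2 fold change was below 0 for 9 of 9 members with TMM scaling, against 46.8% of all genes, with a median of -0.40 against 0.04. On library totals the median of the members was -0.02, against 0.40 for all genes. The number of members that were lower depended on the processing, with 1 on library totals, 5 after correction for GC content and gene length, and 6 without AF replicates 6 and 7. Over all genes, 938, 2523 and 3090 were lower in these fits, against 2519 in the main one. Onecut1 was among the lower members each time. In 1 member, Onecut1, every AF liver was below the lowest PF liver (11.1% of the members, against 9.49% of all genes), and no member had every AF liver above the highest PF liver (8.2% of all genes).

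**Figure D1:**
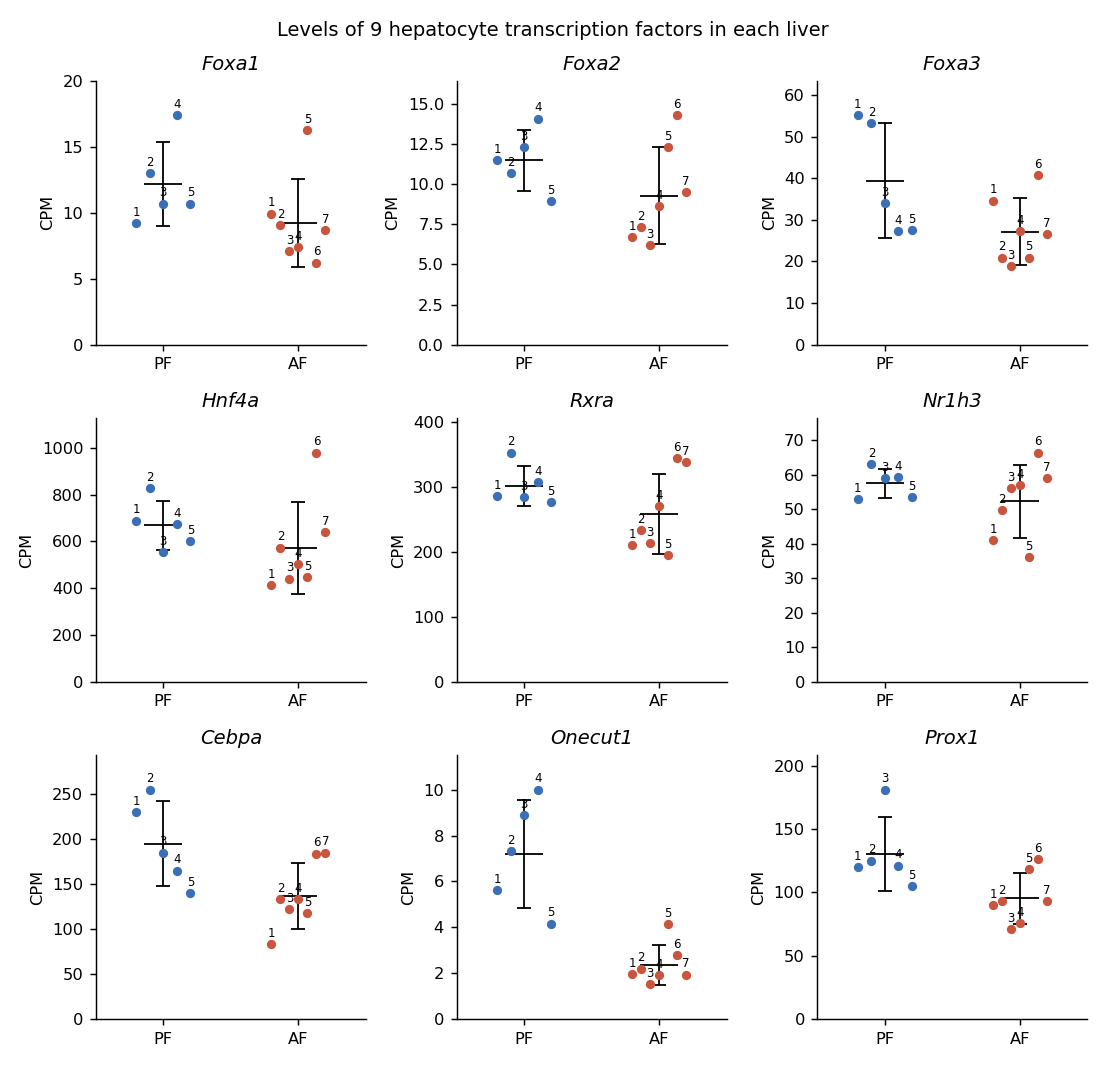
Level of each member in every liver, in CPM with TMM scaling on an axis from 0, with replicate numbers beside the points and bars for mean ± SD (5 PF and 7 AF livers). Onecut1 is the only member whose groups are apart, with AF livers from 1.52 to 4.13 and PF livers from 4.16 to 10 CPM, and AF replicate 6 is the highest AF liver for Hnf4a at 980 CPM.

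Among the pioneer factors, Foxa1 (ENSMUSG00000035451, GRCm38 chromosome 12, 57540628 to 57546916) was measured at 9.2, 13, 10.7, 17.4 and 10.7 CPM in PF replicates 1 to 5. In AF livers the lowest, median and highest values were 6.22, 8.72 and 16.3 CPM. AF replicate 5 alone stood near the top of the PF range, and 5 of 7 AF livers lay below every PF liver. With a log2 fold change of -0.40 (SE, the standard error, 0.229) it did not pass the test (edgeR adjusted p = 0.179). Without AF replicate 5 it was -0.59 and passed (edgeR adjusted p = 0.0186), and on library totals it was -0.02 (edgeR adjusted p = 0.947).

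Foxa2 (ENSMUSG00000037025, chromosome 2, 148042877 to 148046969) was at 11.5, 10.7, 12.3, 14.1 and 8.96 CPM in PF replicates 1 to 5. In AF livers it ranged from 6.2 to 14.3 CPM with a median of 8.63. Replicates 5 and 6 were the high AF livers, at 12.3 and 14.3 CPM, and the groups overlapped. Foxa2 did not pass, with a log2 fold change of -0.31 (SE 0.205; edgeR adjusted p of 0.238) that became 0.01 on library totals.

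Foxa3 (ENSMUSG00000040891, chromosome 7, 19013284 to 19023538) was the most abundant FOXA gene per length in both groups. PF replicates 1 to 5 had 55.1, 53.3, 34.0, 27.3 and 27.5 CPM, and AF livers had 18.9 to 40.7 CPM with a median of 26.6. PF livers themselves fell into high (replicates 1 and 2) and low (4 and 5) values, and 5 of 7 AF livers lay below the lowest of them. The log2 fold change of -0.54 (SE 0.233) missed the threshold (edgeR adjusted p = 0.0797), and it passed without AF replicate 6 (-0.66). On library totals it was -0.18 (edgeR adjusted p = 0.53). AF replicate 6 held the lowest Foxa1 value of all 12 livers, and also their lowest ratio of Foxa1 to Foxa3 (log2 ratio -2.69).

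Hnf4a (ENSMUSG00000017950, chromosome 2, 163506808 to 163572910) had 689, 828, 553, 675 and 600 CPM in PF replicates 1 to 5. AF livers ranged from 413 to 980 CPM with a median of 502. Of the AF livers, 4 lay below every PF liver, while replicate 6 was above every PF liver and replicate 7, at 640 CPM, was within the PF range. PF livers averaged 669 ± 105 CPM (SD, n = 5), AF livers 571 ± 198 CPM (SD, n = 7). The difference, -0.23 on the log2 scale (SE 0.21; 95% interval -0.64 to 0.18), did not pass (edgeR adjusted p = 0.401) and was 0.08 on library totals. Without AF replicate 6 it was -0.41 and passed the threshold, and without replicates 6 and 7 it was -0.49 (edgeR adjusted p = 0.0134). These were the highest AF livers for Hnf4a, so that leaving them out lowers the fold by selection. The antisense gene Hnf4aos overlaps Hnf4a and had only 17 to 51 counts per library, 0.186% of the counts of Hnf4a.

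Rxra (ENSMUSG00000015846, chromosome 2, 27676440 to 27762957), the shared partner of nuclear receptors, was at 286, 353, 284, 307 and 277 CPM in PF replicates 1 to 5. In AF livers it ranged from 195 to 345 CPM with a median of 233. As for Hnf4a, AF replicates 6 and 7 were the high livers (345 and 338 CPM), and the other 5 were below every PF liver. Rxra did not pass, at -0.22 on the log2 scale (SE 0.157; edgeR adjusted p = 0.271) and 0.11 on library totals. Without AF replicates 6 and 7, the highest AF livers for Rxra, it was -0.42 and passed the threshold (edgeR adjusted p = 0.00991).

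Nr1h3 (ENSMUSG00000002108, chromosome 2, 91184061 to 91202834) varied least among PF livers, with 52.9, 63, 59, 59.2 and 53.6 CPM in replicates 1 to 5. AF livers had 36.1 to 66.4 CPM with a median of 56.2. The lowest AF livers were replicates 5 and 1 (36.1 and 41.1 CPM), replicate 6 was above every PF liver, and 3 AF livers were within the PF range. Its difference did not pass, with -0.14 on the log2 scale (SE 0.136; 95% interval -0.40 to 0.13; edgeR adjusted p = 0.431), and was 0.20 on library totals. With 1 library left out it ranged from -0.21 to -0.06. After correction for GC content and gene length it was -0.37 and passed (edgeR adjusted p = 0.0239).

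Cebpa (ENSMUSG00000034957, chromosome 7, 35119293 to 35121928) had 230, 255, 185, 165 and 140 CPM in PF replicates 1 to 5. AF livers ranged from 83.4 (replicate 1) to 185 CPM (replicate 7) with a median of 133. AF replicates 6 and 7 lay within the PF range and the other 5 below it. Cebpa had a log2 fold change of -0.51 (SE 0.199), not past the threshold (edgeR adjusted p = 0.0556), with an exact permutation p of 0.0417. It passed without AF replicate 6, without AF replicate 7 and without PF replicate 5, and DESeq2 also called it (adjusted p = 0.0304). For Cebpa, AF replicates 6 and 7 were the highest AF livers and PF replicate 5 was the lowest PF liver. With library totals the log2 fold change of Cebpa was -0.18 and was not called.

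Onecut1 (ENSMUSG00000043013, chromosome 9, 74861921 to 74891781) was lower in AF livers, at 32.6% of the PF mean. PF replicates 1 to 5 had 5.61, 7.32, 8.88, 10 and 4.16 CPM. AF replicates 1 to 7 had 1.94, 2.19, 1.52, 1.91, 4.13, 2.79 and 1.93 CPM. All 7 AF livers were below all PF livers, although AF replicate 5 and PF replicate 5 nearly met, and on library totals these were at 4.74 and 3.64 CPM and overlapped. PF livers averaged 7.2 ± 2.38 CPM (SD, n = 5), AF livers 2.35 ± 0.878 CPM (SD, n = 7). This is a log2 fold change of -1.62 (SE 0.266; 95% interval -2.14 to -1.10; edgeR adjusted p = 6.76e-04). The exact two-sided permutation p was 0.00126, the smallest that the splits into 5 and 7 livers allow. Onecut1 was called in 25 of 25 alternative fits, and with a library left out the log2 fold change stayed between -1.81 and -1.47. It is the member with the fewest reads, 834 in all PF and 518 in all AF libraries. At the lowest count of 50, counting error alone is 14.1% of the value.

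Prox1 (ENSMUSG00000010175, chromosome 1, 190118035 to 190170714) was lower in AF livers with TMM scaling. It was measured at 120, 125, 181, 121 and 105 CPM in PF replicates 1 to 5. AF livers ranged from 71.0 to 126 CPM with a median of 92.9. AF replicates 5 and 6 (118 and 126 CPM) lay within the PF range, the other 5 were below it, and PF replicate 3 stood well above the other PF livers. Its log2 fold change of -0.45 (SE 0.164; edgeR adjusted p = 0.0417; exact permutation p = 0.0253) became -0.11 on library totals and was not called there. Prox1 passed in 10 of 25 alternative fits. Of the 12 fits that left out 1 liver it passed in 3 (without AF replicate 5, AF replicate 6 or PF replicate 5), with log2 fold changes from -0.53 without AF replicate 6 to -0.31 without PF replicate 3. The antisense gene Prox1os had 67 to 171 counts per library, 4.05% of the counts of Prox1, and the strand setting of the counting is not given in the sources used here.

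**Figure D2:**
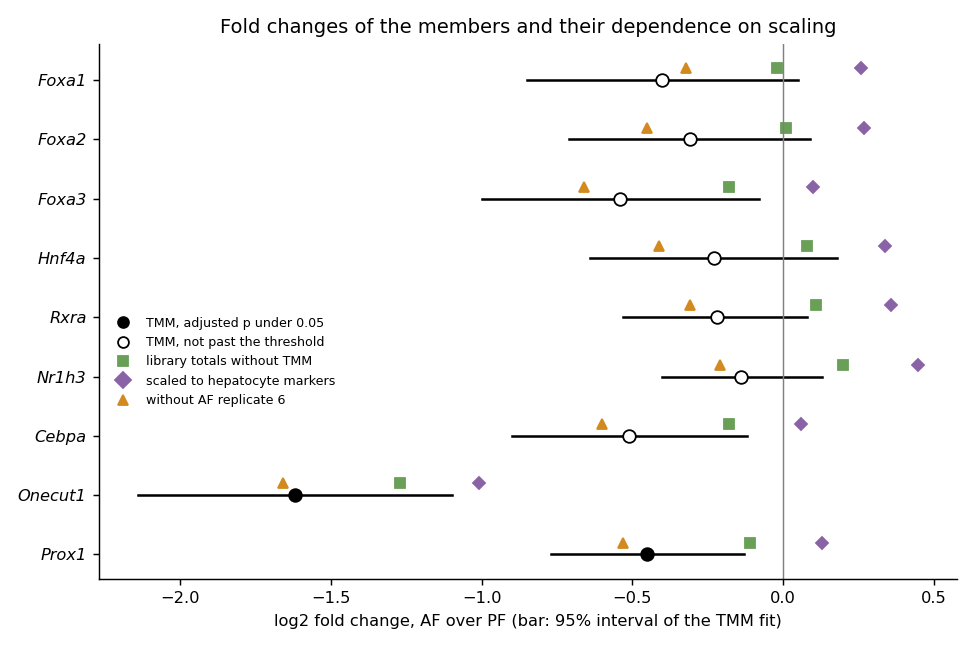
Log2 fold change of each member, AF over PF, with TMM scaling (circles with 95% intervals, filled where the adjusted p passed 0.05), on library totals (squares), scaled to the summed hepatocyte markers (diamonds) and without AF replicate 6 (triangles). Onecut1 stays below -1 in all of them, at -1.62, -1.27, -1.01 and -1.66, while each of the other 8 members lies above 0 when scaled to hepatocyte markers.

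Because 4 members (Hnf4a, Foxa2, Rxra and Nr1h3) had different signs with TMM and on library totals, the members were also set against the abundant transcripts of their own cell type. Counts were scaled to the summed counts of the 13 hepatocyte markers, an alternative chosen after the data had been seen. These markers include genes that the members regulate, and 5 of 13 of them were lower in AF livers with TMM scaling, beside 17.8% of all genes. The markers are therefore not a neutral reference. On this scale the median log2 fold change of all genes was 0.66, and 8367 of the genes tested were called higher and 490 lower. Onecut1 had -1.01 and was still called, Prox1 had 0.13 and was not called, and Nr1h3 had 0.45 and was called higher (edgeR adjusted p = 0.0339). Hnf4a and Rxra had 0.34 and 0.36 and were not called.

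The AF livers stood at different places relative to PF livers. AF replicate 6 was the highest AF liver for 6 of the 9 members with TMM scaling (1 on library totals, where replicate 5 was the highest for 4) and lay below the lowest PF liver for 2 (Foxa1 and Onecut1). AF replicates 2, 3 and 4 each lay below the lowest PF liver for 8 members, replicate 1 for 7, replicate 5 for 6 and replicate 7 for 4. On library totals these counts were 4 members for replicate 3, 3 for replicates 2 and 5, 2 for replicates 1, 6 and 7 and 1 for replicate 4. The matching shares of all genes tested were not worked out for single livers. These counts are thus not shown to be particular to the members. The coefficient of variation of Hnf4a was 15.6% in PF and 34.6% in AF livers, that of Rxra 10.3% and 24%, and that of Nr1h3 7.37% and 20.3%. Without AF replicate 6 the AF values were 17.6%, 21.9% and 18.9%. The variation of Foxa3 was 35% in PF and 29.6% in AF livers, and those of Cebpa (24.2% and 26.6%) and Prox1 (22.3% and 21.2%) were close in both groups. All these values are with TMM scaling, and the differences in spread were not tested. On library totals Hnf4a was at 498 to 688 CPM in PF livers. In AF livers it was then at 512 to 616 CPM, apart from replicate 6 at 862 CPM.

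Within the 7 AF livers, Hnf4a was related to each of the other 8 members on log2(CPM + 0.1), a description of livers that share 1 scaling factor for all genes. The highest values were for Rxra (Pearson r = 0.86, Spearman rho = 0.86) and Cebpa (r = 0.84, rho = 0.93). With exact permutation over 5040 pairings and Benjamini-Hochberg adjustment over the 8 relations, the adjusted p was 0.0603 (r) and 0.0952 (rho) for Rxra and 0.0752 and 0.054 for Cebpa, and none of the 8 relations passed 0.05. Without AF replicates 6 and 7, the livers farthest from the median of Hnf4a, r was 0.59 for Rxra and 0.75 for Cebpa (n = 5). Foxa2, Foxa3 and Prox1 went from r = 0.66, 0.55 and 0.56 to 0.04, -0.35 and -0.03, so that those values rested on these livers. Nr1h3 went from r = 0.71 to 0.42, Onecut1 had r = 0.19 and Foxa1 r = -0.53. On library totals the strongest relation was that of Foxa1 (r = -0.8, exact permutation p = 0.0395, adjusted p = 0.316), with r = -0.23 without AF replicates 5 and 6. Rxra, Cebpa, Foxa3, Foxa2 and Nr1h3 had r = 0.53, 0.47, 0.37, 0.29 and 0.26 there, Prox1 had -0.06 and Onecut1 -0.25, and none passed after adjustment. Over all 12 livers, by deviations from the group means, the genes most like Hnf4a among 8173 compared were Gne (r = 0.972), Gpcpd1 (0.971), Hagh (0.964), Acadvl (0.959) and Oplah (0.955). Among the members, Rxra was at 0.857 (rank 202), Cebpa at 0.785 (rank 603) and Nr1h3 at 0.677. Foxa2, Foxa3, Prox1 and Foxa1 were at 0.561, 0.536, 0.306 and -0.346, and Onecut1 was not among the genes compared.

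A ratio of 2 genes within a library does not depend on the scaling, apart from the 0.1 CPM added to each value. Ratios were taken of CPM without scaling by length, so that they are read between groups and not as relative levels of the genes. Of 8 pairs of related factors tested, 7 are given here, and 3 of these had different ratios in the groups by an exact two-sided permutation test with Benjamini-Hochberg adjustment over the 8 pairs. The ratio of Onecut1 to its paralog Onecut2 was 0.0602 in PF and 0.0327 in AF livers (geometric means), a difference of -0.88 in the mean log2 ratio (exact permutation, adjusted p = 0.0101), and all 7 AF livers were below all PF livers. Onecut2 itself was lower in AF livers, with 116 ± 13.2 CPM (SD, n = 5) against 73.3 ± 20.3 CPM (SD, n = 7) and a log2 fold change of -0.66 (edgeR adjusted p = 0.00675) that became -0.30 on library totals and -0.02 when scaled to hepatocyte markers, and was called on neither. Onecut1 thus differed more than Onecut2 within the same livers.

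The ratio of Nr1h3 to Nr1h2, the gene of LXR beta, was 8.26 in PF and 5.01 in AF livers, a difference of -0.72 in the mean log2 ratio (exact permutation, adjusted p = 0.0101). All 7 AF livers were again below all PF livers, though the log2 ratios of AF replicate 6 and PF replicate 1 were both 2.7 when rounded. Nr1h2 was higher in AF livers, from 6.92 ± 1.03 to 10.3 ± 1.67 CPM (SD, n = 5 and 7; log2 fold change 0.57, edgeR adjusted p = 0.00642), and was not called once GC content and gene length were corrected for (0.21, edgeR adjusted p = 0.0625). That of Rxra to Rxrb was 23.3 in PF and 15.8 in AF livers, a difference of -0.56 (exact permutation, adjusted p = 0.0168), with 6 of 7 AF livers below all PF livers. Rxrb averaged 13 ± 2.84 CPM over PF livers and 16 ± 2.24 CPM over AF livers (SD, n = 5 and 7), which was not called with TMM scaling (edgeR adjusted p = 0.115). Rxrb was called higher on library totals (log2 fold change 0.67, edgeR adjusted p = 0.00573), beside 45.6% of all genes. It was also called higher scaled to hepatocyte markers (0.94), beside 8367 of the 14168 genes tested. With sample quality weights in limma it was called higher too (0.40), beside 3972 genes. Once GC content and gene length were corrected for, it was -0.10. These 3 pairs passed in each fit that left out 1 liver, and with ratios corrected for GC content and gene length, an alternative added after the data were seen (-1.07, -0.59 and -0.49). They also passed with 0.5 CPM added in place of 0.1, with differences of -0.73, -0.70 and -0.55.

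Nr1h2 and Rxrb are broadly expressed, and markers of some other cell types were higher in AF livers, beside 22.0% of all genes. Of 7 Kupffer cell markers, 6 were higher in AF livers, with summed levels of 653 to 938 CPM in PF and 982 to 2910 CPM in AF livers. Of 9 stellate cell and fibroblast markers, 7 were higher, with sums of 69.4 to 165 and 140 to 601 CPM. Of the 7 bile duct markers tested, 5 were higher, with sums of 59.4 to 255 CPM in PF and 80.2 to 1130 CPM in AF livers. Most of these sums was Spp1, which was not called (126 ± 77.5 to 404 ± 365 CPM, SD, n = 5 and 7; edgeR adjusted p = 0.0635), is also in the list of recruited macrophage markers and was singled out after its values were seen. The other 6 summed to 12.6 to 17.3 CPM in PF and 13.7 to 82.4 CPM in AF livers, with the highest sum in AF replicate 1. The 7 neutrophil markers summed to 53.7 to 783 CPM in PF and 45.7 to 178 CPM in AF livers, and none was called with TMM scaling. The sum of 783 CPM was that of PF replicate 1, and the next highest PF liver had 196 CPM. For the 8 T and B cell markers, 1 was lower, beside 17.8% of all genes. Their sums were 7.09 to 14.9 CPM in PF and 3.45 to 6.66 CPM in AF livers. Within the AF group the order of the livers differed between these lists. AF replicate 6, with the highest Nr1h3 to Nr1h2 and Rxra to Rxrb ratios, had the lowest stellate cell sum (140 CPM), and AF replicate 1, with the lowest ratios, the highest (601 CPM). The recruited macrophage sum was likewise lowest in replicate 6 (142 CPM) and highest in replicate 1 (1620 CPM). The bile duct sum was highest in replicate 1 (1130 CPM) and next to lowest in replicate 6 (96.1 CPM). Spp1, which is in both lists, was most of each of these sums, with 1050 CPM in replicate 1 and 82.2 CPM in replicate 6. The recruited macrophage and bile duct sums are therefore not separate observations. Without Spp1 the bile duct sums were 82.4 CPM in replicate 1 and 13.7 CPM in replicate 6. For Kupffer cell markers, AF replicate 1 had the lowest sum (982 CPM) and replicate 6 the next lowest (1270 CPM), and for endothelial markers replicate 1 also had the lowest sum (213 CPM, against 296 CPM in replicate 6). The part of these cells in the ratios, and that of bile duct cells in Onecut1, was not tested. Of 8 endothelial markers, 1 (Lyve1, found in sinusoidal and lymphatic vessels) was higher, from 10.4 to 23.3 CPM, while Prox1 was lower. On library totals 6 of the 8 were higher, beside 45.6% of all genes, and Prox1 had a log2 fold change of -0.11.

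**Figure D3:**
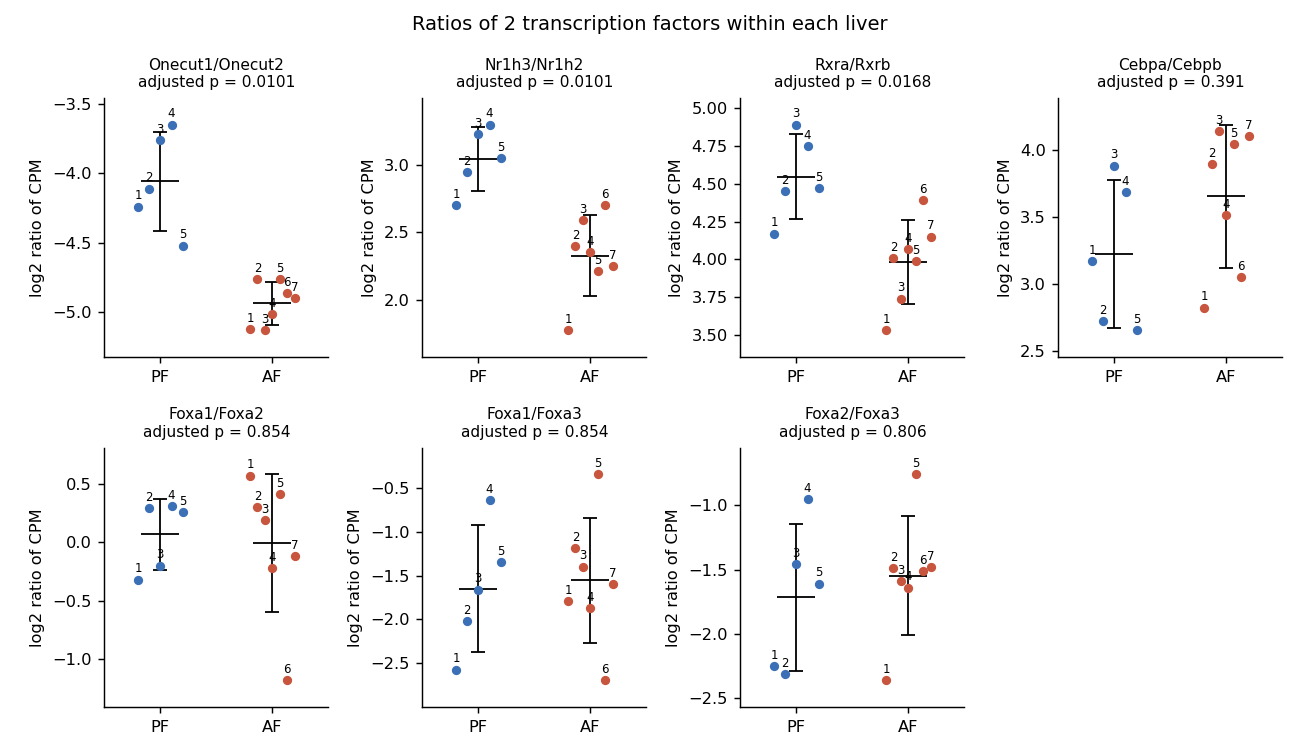
Log2 ratio of CPM of 2 factors within each liver, with replicate numbers beside the points and bars for mean ± SD (5 PF and 7 AF livers) and the adjusted exact permutation p over the 8 pairs above each panel. The ratios of Onecut1 to Onecut2, Nr1h3 to Nr1h2 and Rxra to Rxrb are lower in AF livers, by 0.88, 0.72 and 0.56 as given in the text, and the other 4 shown are not past the threshold.

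The other 4 pairs given here did not pass. Cebpa to Cebpb, the C/EBP of the acute phase, differed by 0.43 in the mean log2 ratio (exact permutation, adjusted p = 0.391). Cebpb was lower in AF livers with TMM scaling (from 22.3 ± 10.8 to 11.3 ± 5.17 CPM, SD, n = 5 and 7; log2 fold change -0.98, edgeR adjusted p = 0.0283) and was not called on library totals (-0.64) or scaled to hepatocyte markers (-0.35), nor without AF replicate 3, AF replicate 5, PF replicate 1 or PF replicate 2 (-0.70, edgeR adjusted p = 0.102, without the last). Among the FOXA genes, the differences were -0.08 (Foxa1 to Foxa2), 0.09 (Foxa1 to Foxa3) and 0.17 (Foxa2 to Foxa3), with adjusted exact permutation p of 0.854, 0.854 and 0.806. The ratio of Foxa1 to Foxa2 was 1.05 in PF and 0.994 in AF livers. The spread of these ratios over the AF livers was wide, from -1.18 to 0.57 for Foxa1 to Foxa2, with AF replicate 6 at the low end.

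The genes around the members were followed through lists of known partners and targets. Of 27 other liver transcription factors tested, 8 were lower and 1 was higher, beside 17.8% and 22.0% of all genes. Ppara, the fasting regulator that binds DNA with RXRA, was lower (119 ± 18.5 to 47.1 ± 27.0 CPM, SD, n = 5 and 7; log2 fold change -1.34, edgeR adjusted p = 0.00462), as was Klf15, a regulator of amino acid use (-1.18, edgeR adjusted p = 5.97e-04). Tead1, a DNA-binding partner of YAP, was higher (10.6 ± 2.25 to 23.7 ± 8.09 CPM; 1.17, edgeR adjusted p = 0.00175). On library totals 3 of this list were lower and 7 higher, where 6.62% of all genes were lower and 45.6% higher. Of 15 partners of RXR tested, 4 were higher and 2 lower, and 6 and 2 on library totals. The thyroid hormone receptor Thrb was lower (53.0 ± 6.14 to 27.1 ± 3.91 CPM; -0.97, edgeR adjusted p = 5.48e-05), a call lost when scaled to hepatocyte markers (-0.38, edgeR adjusted p = 0.0767), and the retinoic acid receptor Rarg (1.28, edgeR adjusted p = 0.00272) and Ppard (0.59, edgeR adjusted p = 0.0123) were higher. Of 10 paralogs of the members tested, Cebpb and Onecut2 were lower and Nr1h2 higher, while on library totals 3 were higher and the other 7 did not pass.

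Of 28 genes known as HNF4A targets, 10 were lower and 1 was higher, beside 17.8% and 22.0% of all genes, with a median log2 fold change of -0.45 against 0.04 for all genes. Pklr, the liver pyruvate kinase, had the lowest fold among those called (-1.43, edgeR adjusted p = 0.00591), followed by Apoa1, the main protein of high-density lipoprotein (5150 ± 904 to 2220 ± 581 CPM; -1.21, edgeR adjusted p = 0.00117). Apoa4 went the other way (58.4 ± 20.1 to 542 ± 351 CPM; 3.21, edgeR adjusted p = 1.88e-04). Of 13 FOXA targets tested, 4 were lower and the other 9 did not pass (median -0.73). Of 16 CEBPA targets, 8 were lower and 1 higher (median -0.78), and the same shares of all genes stand beside the FOXA and CEBPA counts (17.8% lower, 22.0% higher). Tat, which breaks down tyrosine, was lower (2900 ± 611 to 1360 ± 569 CPM; -1.09, edgeR adjusted p = 0.00991), and Gys1, the glycogen synthase of muscle, was higher (0.65, edgeR adjusted p = 0.0215). The call of Tat was lost on library totals (-0.71) and when scaled to hepatocyte markers (-0.42), and that of Gys1 after correction for GC content and gene length (0.38, edgeR adjusted p = 0.113), without PF replicate 3 (0.6) and without PF replicate 5 (0.57). The lists share genes, among them Alb, Ttr, Tat, Apoa1, Pck1, G6pc and Ppargc1a. On library totals, 7 HNF4A targets, 4 FOXA targets and 5 CEBPA targets were lower, and 2, 0 and 1 were higher, beside 6.62% and 45.6% of all genes.

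Of 18 LXR targets, 4 were higher and 5 lower, beside 22.0% and 17.8% of all genes, and on library totals 7 were higher and 5 lower, beside 45.6% and 6.62%. Lpl, which frees fatty acids from lipoproteins (45.1 ± 19.2 to 409 ± 262 CPM; 3.18, edgeR adjusted p = 6.67e-04), and the cholesterol exporter Abcg1 (7.07 ± 1.4 to 20.1 ± 8.13 CPM; 1.5, edgeR adjusted p = 0.00174) were higher. Fasn, the fatty acid synthase (472 ± 215 to 75.3 ± 26.5 CPM; -2.65, edgeR adjusted p = 6.33e-05), and Scd1, which makes monounsaturated fatty acids (-1.43, edgeR adjusted p = 0.0265), were lower, though Scd1 was not called without PF replicate 1 (-1.38) or PF replicate 3 (-1.29), or scaled to hepatocyte markers (-0.92). Lpl and Abcg1 are also genes of macrophages, and 4 of 7 recruited macrophage markers were higher in AF livers. The marker sums were 71.6 to 296 CPM in PF and 142 to 1620 CPM in AF livers, with Spp1 at 1050 of the 1620 CPM. The part of macrophages in the values of Lpl and Abcg1 was not tested. Nr1h3 itself is in the list of LXR targets and was not called.

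Of 13 genes linked to HNF6 and PROX1, 4 were lower and the other 9 did not pass, beside 17.8% of all genes lower and 22.0% higher. On library totals 4 were lower and 1 was higher, beside 6.62% and 45.6%. Glul, the glutamine synthetase of pericentral hepatocytes, went from 1150 ± 42.1 to 338 ± 206 CPM (SD, n = 5 and 7; -1.77, edgeR adjusted p = 0.00315). Ppargc1a, a coactivator of HNF4A and other nuclear receptors that is in 4 of the lists, was lower (19.7 ± 7.59 to 5.33 ± 0.581 CPM; -1.89, edgeR adjusted p = 3.29e-05). Of 17 coregulators of nuclear receptors, 3 were lower and 2 higher, beside 17.8% and 22.0% of all genes, and on library totals 1 was lower and 5 higher, beside 6.62% and 45.6%. The lower ones were Ppargc1a, Nr0b2, the repressor SHP (-0.89, edgeR adjusted p = 0.0207), and the coactivator Ncoa2 (-0.36, edgeR adjusted p = 0.00198), which the naming rule leaves out and which was added after its values were seen. Nr0b2 was called in 19 of 25 alternatives. It was not called on library totals (-0.52), scaled to hepatocyte markers (-0.23), without PF replicate 2 (-0.72), with limma-voom (-0.79), with sample quality weights (-0.64) or with the replicate number as a block (-0.89, edgeR adjusted p = 0.0507). The higher ones were Nrip1 (0.64, edgeR adjusted p = 0.0126) and the deacetylase Hdac3 (0.29, edgeR adjusted p = 0.0134).

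**Figure D4:**
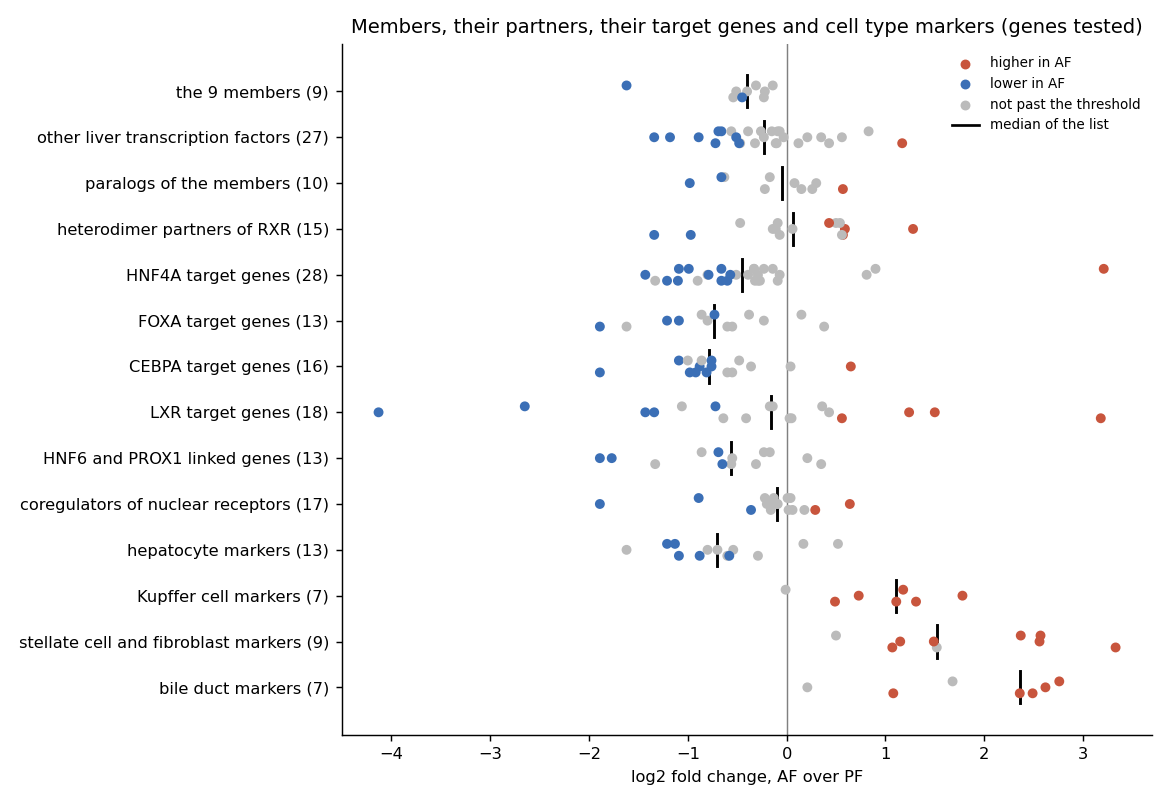
Log2 fold change, AF over PF, of every tested gene of each list (points, number of genes in brackets), coloured by whether the gene was higher, lower or not past the threshold, with the median of the list as a vertical bar. The median of the 9 members is -0.40, those of FOXA and CEBPA targets are -0.73 and -0.78, and that of bile duct markers is 2.36.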

How the data were processed

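RNA of whole liver from 5 PF and 7 AF mice was sequenced, with 1 library per mouse, so that p-values measure the spread between mice. The authors extracted RNA with TRIzol, selected mRNA with oligo(dT), prepared stranded libraries and aligned reads to GRCm38 with TopHat2 2.0.13 after FastQC 0.10.1, and HTSeq 0.10.0 is named in the submitters' processing notes. They deposited counts per Ensembl gene, not normalized, in 1 table. Annotation and strand setting of the counting are not given in the sources used here. The FPKM values and the Cuffdiff2 comparison of the study could not be repeated from counts. Columns were assigned by the group and replicate number in their names.

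Symbols came from GENCODE release M21, which left 67 IDs without a name. Counts were tested with edgeR 4.0.16 (R 4.3.3; TMM, filterByExpr by group, quasi-likelihood test of AF against PF, Benjamini-Hochberg adjustment, threshold 0.05). All adjusted p values of single genes are from this test unless another is named. CPM are given as mean ± SD over mice. Exact two-sided permutation tests used all splits into 5 and 7 livers, and ratios used log2(CPM + 0.1). Promoter windows came from RefSeq. Alternatives were DESeq2 1.42.0, limma 3.58.1 (voom, with and without sample quality weights), RLE and upper-quartile factors, library totals, a looser filter (1 count in any library) and a stricter one (mean of 10), thinning, an offset for GC content and length (known for 99.9% of the genes), the replicate number as a block, and each library left out. Scaling to hepatocyte markers, leaving out AF replicates 6 and 7, and correcting ratios for GC content and length were added after the data were seen. The steps were tested on simulated data.

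The members and lists were chosen with earlier results of these data known. Named genes are the members, the genes of the 8 pairs (1 pair is not reported here), up to 2 highest and 2 lowest called genes of each list (mean log2 CPM from 0 up), and the 5 genes most like Hnf4a (mean log2 CPM from 3 up). Intervals of counts cover counting error only, since reads carry no molecular identifiers. Among 31 pairs of libraries within groups, the lowest ratio of their difference to counting noise was 21.1, so that none was a repeat of another.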

Additional observations from a re-analysis of the deposited data

Results flagged for a closer look

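Within each group, the highest and lowest liver of each member and of each paralog in the 8 pairs were compared with the nearest other liver, in 28 groups of values. In 4 of them the gap was larger than Dixon's 95% limit, where chance gives about 1 in 20, or 1.4. Hnf4a was at 980 CPM in AF replicate 6, with the next AF liver at 640 CPM. Cebpb was at 22.1 CPM in the same liver, with the next at 11.7 CPM. Foxa1 was at 16.3 CPM in AF replicate 5, with the next AF liver at 9.95 CPM. Prox1 was at 181 CPM in PF replicate 3, with the next PF liver at 125 CPM.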

How the results depend on the processing

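Onecut1 kept its direction and its call in 25 of 25 alternatives, with adjusted p from 8.21e-08 to 0.0173. The number of members that were lower, 2 with TMM and edgeR, was 3 with DESeq2 and with RLE factors, 2 with limma-voom, 5 with sample quality weights, 1 with upper-quartile factors, 1 on library totals, 1 with the filter at 1 count in any library, 5 after correction for GC content and length, 6 without AF replicates 6 and 7, 1 when scaled to hepatocyte markers (with 1 higher), and 1 to 5 with 1 library left out. Over all genes, 2519 were lower with TMM and edgeR, 2929 with DESeq2, 2678 with RLE, 2580 with limma-voom and 3541 with quality weights. They were 2161 with upper-quartile factors, 938 on library totals, 2258 with the filter at 1 count and 2523 after correction for GC content and length. Without AF replicates 6 and 7 they were 3090, scaled to hepatocyte markers 490 (with 8367 higher), and with 1 library left out 2119 to 2923. Library totals and hepatocyte marker scaling moved the median of all genes by 0.36 and 0.62, to 0.40 and 0.66, where the median of the members was -0.02 and 0.26. The cause of the other changes was not tested.
On library totals, log2 fold changes were 0.08 for Hnf4a, 0.01 for Foxa2, -0.11 for Prox1, 0.11 for Rxra and 0.20 for Nr1h3, and r with Hnf4a was -0.25 for Onecut1 and -0.06 for Prox1. Scaled to hepatocyte markers, they were 0.34 for Hnf4a, 0.26 for Foxa1, 0.27 for Foxa2, 0.10 for Foxa3, 0.06 for Cebpa, 0.13 for Prox1, 0.36 for Rxra and 0.45 for Nr1h3. With sample quality weights, Foxa1 (-0.56), Foxa2 (-0.51) and Cebpa (-0.43) passed. With the GC and length offset, Foxa3 (-0.63), Cebpa (-0.85), Rxra (-0.54) and Nr1h3 (-0.37) passed, Prox1 (-0.38) did not, and Rxrb was at -0.10. Cebpa passed with DESeq2 (-0.53) and RLE (-0.53). Prox1 did not pass with the filter at 1 count (-0.44) or upper-quartile factors (-0.40). Without AF replicates 6 and 7, Hnf4a (-0.49), Foxa3 (-0.68), Cebpa (-0.72) and Rxra (-0.42) passed.
Same-numbered PF and AF livers did not deviate together, with correlations of 0.0, -0.07, 0.12, 0.08 and 0.12 (-0.31 to 0.35 over other numbers). Of 5 PF livers, 1 correlated best with its own number. No pairing by number was thus visible in expression, which cannot show whether mice were paired in feeding. With the replicate number as a block, which gives AF replicates 6 and 7 no partner, 5 members were lower, beside 2940 of all genes. The members were Hnf4a (-0.49), Foxa3 (-0.65), Cebpa (-0.71), Onecut1 and Rxra (-0.43), while Prox1 was at -0.54 (edgeR adjusted p = 0.0542).
With 1 library left out, log2 fold changes ranged from -0.41 to -0.14 for Hnf4a, -0.59 to -0.24 for Foxa1 and -0.66 to -0.39 for Foxa3. They ranged from -0.61 to -0.40 for Cebpa, -0.53 to -0.31 for Prox1 and -0.21 to -0.06 for Nr1h3. Differences in log2 ratios ranged from -0.17 to 0.12 for Foxa1 to Foxa2, -0.14 to 0.35 for Foxa1 to Foxa3 and 0.02 to 0.36 for Foxa2 to Foxa3. Depth limits Onecut1 most, at 50 to 255 counts per library.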
